A study of Homo sapiens with 23 samples.

Results

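The change that came with prexasertib resistance in the ovarian cancer line EFO-21 was set against the same change in OV-90, Kuramochi and OVSAHO, gene by gene. All 23 of the 23 RNA-seq libraries of the study and all 21658 genes of the deposited table entered the comparison. Prexasertib inhibits the checkpoint kinase CHK1, and the 4 lines are established lines of human ovarian cancer. Each line was present as a parental form and as a resistant form raised from it by stepping up the drug concentration over a long period. This gave 8 groups of 3 libraries, except for parental OV-90 with 2. One resistant form was available for each line, so the libraries of a group repeat the same resistant form. The columns carry library numbers from 2 to 24, which serve here as names. Values are on a log2 scale, so a difference of 1 is 2-fold, and the number of reads behind them is unknown. They are not scaled to gene length, so levels are compared between libraries and not between genes.

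For each gene the interaction was the EFO-21 change (resistant minus parental) minus the mean of that change in the other 3 lines. A change or an interaction was called at a limma adjusted p under 0.05 and a size of at least 2-fold. A gene was counted as opposed when its interaction was called, EFO-21 was called in one direction, at least 2 of the other lines were called in the other direction, and none of them was called in the direction of EFO-21.

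CHK1 is activated by the kinase ATR when replication forks stall, and it holds back the cell cycle kinases until DNA has been copied. Ligands of the EGF receptor family drive ERK signalling, and genes such as the DUSP phosphatases are induced by ERK and dampen it in turn. Epithelial cells hold together through cadherins, claudins and desmosomal proteins, whose loss often comes with matrix and mesenchymal gene expression in carcinoma cells.

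The labelled lines were first checked against ovarian carcinoma markers. PAX8, a transcription factor of Müllerian epithelium, lay between 8.42 and 9.50 in every EFO-21, Kuramochi and OVSAHO library and between 1.77 and 2.43 in OV-90. SOX17 showed the same order, from 11.26 to 12.81 in those 3 lines and from 4.02 to 5.38 in OV-90. WT1 lay between 0.00 and 1.21 in EFO-21 and between 5.65 and 8.30 in Kuramochi and OVSAHO. EFO-21 therefore carried PAX8 and SOX17 without WT1, and OV-90 had lower PAX8 and SOX17 values than those 3 lines. KRT8 and KRT18, keratins of simple epithelia, were at least 8.67 in all 23 libraries.

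The parental OV-90 pair differed more than the libraries of other groups. Across genes, libraries 2 and 3 had a Pearson correlation of 0.952, against at least 0.971 within every other group. Library 3 was closer to the resistant OV-90 libraries (0.945 to 0.949) than library 2 (0.905 to 0.915). Every library was closest to libraries of its own line, and the best correlation with another line was 0.808. Library 2 was more than 2-fold above library 3 for 1348 genes and more than 2-fold below it for 1450. KRT5, a basal keratin, was 6.82 in library 2 and 1.23 in library 3, COL6A3, a chain of collagen VI, was 4.16 and 0.18, and FN1, the fibronectin gene, was 11.96 and 13.50.

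Of the 21658 genes, the interaction was called higher in EFO-21 for 1838 (8.49%) and lower for 1888 (8.72%). The median interaction over all genes was -0.01. EFO-21 itself had 1442 genes called higher (6.66%) and 1527 called lower (7.05%), with a median change of 0.01. The mean of the other 3 lines had 982 called higher (4.53%) and 1042 called lower (4.81%), with a median of 0.

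A called interaction did not by itself mean movement in opposite directions. Among the 1838 higher interactions, EFO-21 was called higher in 939, not called in 891 and called lower in 8. Among the 1888 lower ones, EFO-21 was called lower in 1046, not called in 837 and called higher in 5. The opposed genes numbered 63 with EFO-21 higher (0.291% of all genes) and 75 with EFO-21 lower (0.346%), 138 in all (0.637%). Where parental and resistant libraries are described as separate, the background is the share of all genes without overlap, which was 59.7% in EFO-21, 69.1% in OV-90, 59.2% in Kuramochi and 48.4% in OVSAHO.

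**Figure D1:**
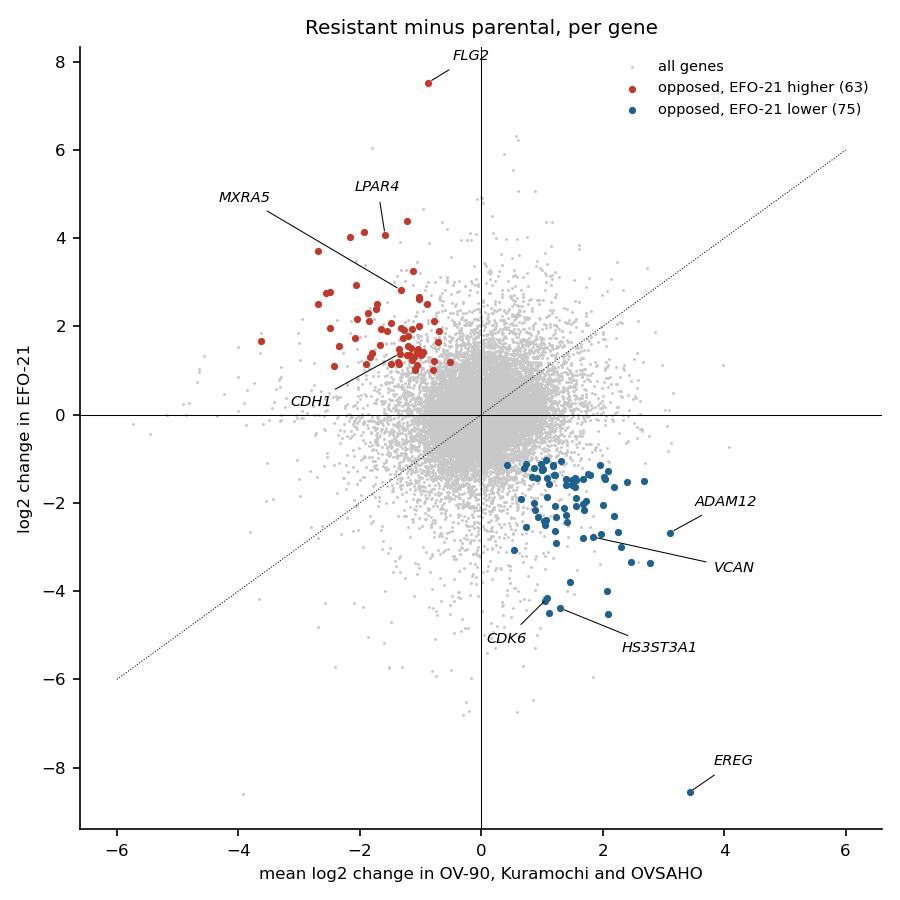
Each point is a gene, with the mean log2 change (resistant minus parental) of OV-90, Kuramochi and OVSAHO on the horizontal axis and the log2 change in EFO-21 on the vertical axis. Red points are the 63 opposed genes with EFO-21 higher, blue points the 75 with EFO-21 lower, and the dotted line marks equal change, with EREG farthest from it at -8.55 in EFO-21 against 3.44 in the other lines.

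Among the 63 genes that rose in EFO-21, Kuramochi was called lower in 49, OVSAHO in 46 and OV-90 in 40. Among the 75 that fell in EFO-21, Kuramochi was called higher in 64, OVSAHO in 52 and OV-90 in 43. The background for these counts is uneven: of all genes, Kuramochi had 12.3% called higher and 11% lower, OV-90 11.4% and 8.23%, and OVSAHO 3.93% and 3.92%. The call in all 3 other lines was met by 9 genes in each direction, 18 in all (0.0831%). The remaining line had the same sign as EFO-21, without a call, in 18 of the 63 and in 34 of the 75.

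EREG, which encodes the EGF receptor ligand epiregulin (Gene ID 2069, chromosome 4, 75230862 to 75254466 in GRCh37), had the largest interaction among the opposed genes. It stood at 13.73, 13.62 and 13.64 in parental EFO-21 and at 5.11, 5.46 and 4.76 in resistant EFO-21. In OV-90 it went from 0.22 and 0.18 to 4.24, 4.10 and 3.89, and in Kuramochi from 0.01, 0.01 and 0.03 to 3.93, 3.30 and 3.88. In OVSAHO the parental values were 0.02, 2.07 and 1.79 and the resistant values 3.89, 3.91 and 4.33. Parental EFO-21 was far above every other library, and the resistant libraries of all 4 lines ended between 3.30 and 5.46, with no overlap between parental and resistant libraries in any line. The interaction was -11.99 (SE 0.41, limma adjusted p = 3.96e-13). The deposited value rests on 1 exon, and most parental values of the other lines were at or under the 10th percentile of their library (1.70 to 1.87, called the bottom of the range here), so those rises are not measured folds. In a bulk sample, fewer cells expressing a gene and less RNA per cell cannot be told apart.

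PHLDA1, a gene induced by ERK signalling (Gene ID 22822, chromosome 12, 76419227 to 76425556), crossed over between the lines at high levels. In EFO-21 it went from 11.08, 11.13 and 10.99 to 8.59, 8.74 and 8.58. In Kuramochi it went from 9.06, 9.01 and 8.97 to 11.03, 11.16 and 10.96, and in OVSAHO from 8.05, 8.48 and 8.48 to 9.50, 9.60 and 9.81. Parental EFO-21 had the highest level of all parental groups and resistant EFO-21 the lowest of all resistant groups, and parental and resistant libraries were separate in each line. OV-90 went from 10.21 and 10.29 to 11.19, 11.10 and 11.18, a difference of 0.91 that was under 2-fold. The interaction was -3.84 (SE 0.11, adjusted p = 5.22e-14).

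DUSP4, a phosphatase that inactivates ERK, fell by 1.45 in EFO-21 and rose by 1.39 in Kuramochi and 3.27 in OVSAHO. Its EFO-21 libraries went from 8.72, 8.81 and 8.69 to 7.32, 7.25 and 7.29. The OVSAHO parental values of -0.19, -0.05 and 1.33 were at the bottom of the range, against 3.67, 3.43 and 3.79 in the resistant libraries. The groups were apart in both lines. OV-90 differed by 0.38, which was not called, and the interaction was -3.13 (SE 0.29, adjusted p = 1.12e-07).

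Of the 15 measured EGF receptor family ligands and receptors, 8 had a called lower interaction and 0 a called higher one, with a median of -1.19. Of all genes, 8.72% had a called lower interaction and 8.49% a called higher one, the background for this and every later list. At an unadjusted p under 0.05 in limma, the counts were 11 and 2, against 25.2% and 24.1% of all genes. EFO-21 was called lower for 6 of the 15, against 7.05% of all genes. AREG, BTC and ERBB3 are further examples, chosen after their values were seen, as are all other list members named as examples here beside the opposed genes. AREG, the amphiregulin gene beside EREG, fell by 5.81 in EFO-21, from 8.03, 8.05 and 7.93 to 1.61, 2.57 and 2.41. It did not move against the other lines in sign, since it was called lower in OVSAHO (-1.18), and its values in OV-90 (-0.89) and Kuramochi (-0.37) were not called. BTC fell by 3.56 in EFO-21, 2.77 in Kuramochi and 1.30 in OVSAHO. ERBB3, a receptor of neuregulins, fell by 2.09 in EFO-21 and was called in no other line, with an interaction of -2.00. EGFR itself rose in OV-90 (1.33) and Kuramochi (1.74) and had a difference of -0.13 in EFO-21, for an interaction of -1.46.

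Of 23 measured genes of MAPK output and feedback, 9 had a lower interaction and 1 a higher one (median -0.63), against 8.72% and 8.49% of all genes. At an unadjusted p under 0.05 in limma, 14 were lower and 4 higher. Besides PHLDA1 and DUSP4 the called lower genes included ETV4 and SPRY2. ETV4, an ERK-responsive transcription factor, fell by 2.75 in EFO-21 (interaction -2.67). SPRY2, a feedback inhibitor, fell by 1.87 (interaction -1.77). SPRY2 also fell by 2 in Kuramochi and rose by 1.15 in OV-90. EMP1 was the 1 gene of the list called in the other direction, with an interaction of 1.98. Of 22 AP-1 and immediate early genes, 3 had a higher interaction and 2 a lower one (8 and 7 at an unadjusted p under 0.05 in limma), with a median of 0. EFO-21 was called higher for 7 and lower for 2, against 6.66% and 7.05% of all genes. Kuramochi was called higher for 11 and lower for 1, against 12.3% and 11% of all genes. EGR2 rose by 3.43 in EFO-21 and EGR3 by 3.37. BATF3, a transcription factor of the AP-1 superfamily, was the opposed gene of that list. It went from 4.46, 3.55 and 4.39 to 1.74, 2.27 and 2.73 in EFO-21 and from 4.06, 4.21 and 3.47 to 5.90, 6.36 and 5.30 in OVSAHO. The groups of both lines did not overlap, and with a rise of 3 in Kuramochi the interaction was -3.45 (SE 0.53, adjusted p = 4.05e-05).

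CXCL5, a neutrophil-attracting chemokine (Gene ID 6374, chromosome 4, 74861359 to 74864394), was opposed to all 3 other lines. It stood at 12.81, 12.81 and 12.71 in parental EFO-21 and at 11.44, 11.40 and 11.66 in resistant EFO-21. In OV-90 it went from 2.21 and 2.29 to 4.40, 4.35 and 4.11, and in Kuramochi from 1.33, 0.36 and 1.46 to 2.99, 3.20 and 3.47. In OVSAHO it went from 0.82, 0.52 and 0.92 to 2.70, 2.79 and 2.95. Parental and resistant libraries were separate in every line, yet the resistant EFO-21 level remained above all libraries of the other lines. The interaction was -3.36 (SE 0.25, adjusted p = 5.44e-09), and the Kuramochi and OVSAHO parental values were at the bottom of the range.

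**Figure D2:**
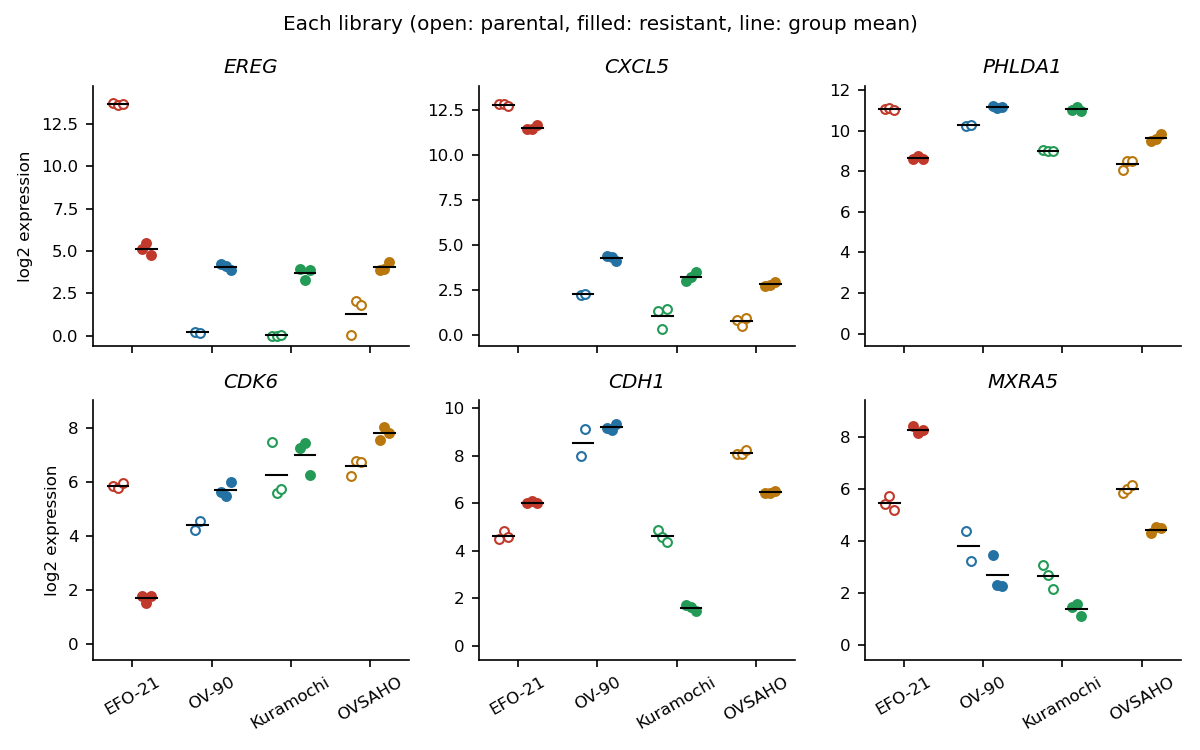
Log2 expression of 6 opposed genes in each of the 23 libraries, with the 4 lines on the horizontal axis, open circles for parental libraries, filled circles for resistant ones and a black line at each group mean. EREG, CXCL5, PHLDA1 and CDK6 fell in EFO-21 and had higher group means in the resistant form of the other lines, CDH1 and MXRA5 rose in EFO-21, and OV-90 does not share the CDH1 fall of Kuramochi and OVSAHO.

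Of 42 measured inflammatory targets of NF-kappaB, 17 had a lower interaction and 3 a higher one, with a median of -0.59. EFO-21 was called lower for 20 of them and higher for 1, against 7.05% of all genes lower and 6.66% higher. OV-90 was called lower for 9 and higher for 6, Kuramochi for 7 and 12, and OVSAHO for 6 and 2. Of all genes, OV-90 had 8.23% called lower and 11.4% higher, Kuramochi 11% and 12.3%, and OVSAHO 3.92% and 3.93%. SAA1 and LCN2, genes of the acute phase and of innate defence, are examples. LCN2, the iron-binding protein lipocalin 2, went from 13.27, 13.47 and 13.29 to 9.12, 9.27 and 9.72 in EFO-21 and rose by 1.07 in OV-90, from 3.03 and 2.48 to 3.83, 3.88 and 3.77. Groups were separate in both lines. SAA1 fell by 4.58 in EFO-21 and rose by 1.22 in OV-90. Neither gene was opposed by the rule, because only 1 other line was called. SOD2, the mitochondrial superoxide dismutase, fell by 2.32 (interaction -2.58). IL1B fell by 1.44 in EFO-21 and rose by 3.78 in Kuramochi.

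Among the 24 NF-kappaB subunits and feedback inhibitors, 4 had a lower interaction and 0 a higher one in limma, with 7 and 4 at an unadjusted p under 0.05 and a median of -0.09. The 4 were NFKB1, which encodes the p105 and p50 subunit (-1.16), NFKBIZ (-1.77), BCL3 (-1.10) and BIRC3 (-2.46). BIRC3, an inhibitor of apoptosis induced by NF-kappaB, fell by 1.65 in EFO-21 and rose by 2.31 in Kuramochi. Of the 24 genes of IL6 family signalling, 6 had a lower and 1 a higher interaction (median -0.63). EFO-21 itself was called higher for 3 and lower for 3, against 6.66% and 7.05% of all genes, with a median change of 0.02.

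Promoter sequences were taken from RefSeq (250 bases before to 50 after the annotated start, table of assembly GRCh38.p14) to see what letters the opposed genes share. Windows were found for 36 of the 63 genes that rose in EFO-21, for 54 of the 75 that fell, and for 14340 genes of the table. The 4 sequences printed here were chosen after their motif matches and values were seen, 1 for each of 4 motifs, and all belong to genes that fell in EFO-21. Each is a stretch of 60 bases, read 5′ to 3′ on the strand of the gene and matched exactly to GRCh37, with the motif in capitals. In EREG (chr4:75230680-75230739, plus strand) the capitals mark CACCTG as read on the opposite strand, an E-box that repressors such as ZEB1 can bind. In CXCL5 (chr4:74864451-74864510, minus strand) they mark a pair of overlapping kappaB matches. In PERP (chr6:138428625-138428684, minus strand) they mark the AP-1 motif TGANTCA, and in HS3ST3A1 (chr17:13505262-13505321, minus strand) the cyclic AMP response element TGACGTCA. The CXCL5 stretch also overlaps an exon of a long non-coding RNA.
EREG: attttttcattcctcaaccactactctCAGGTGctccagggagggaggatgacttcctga
CXCL5: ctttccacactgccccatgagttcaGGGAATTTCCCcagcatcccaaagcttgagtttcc
PERP: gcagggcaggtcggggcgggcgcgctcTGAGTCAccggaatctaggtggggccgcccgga
HS3ST3A1: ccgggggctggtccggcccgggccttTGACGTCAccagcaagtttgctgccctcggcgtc

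All motifs were searched on both strands of the whole 300-base windows. TGANTCA was present in 5 of the 54 windows of genes that fell in EFO-21 (9.26%), in 2 of the 36 of genes that rose (5.56%) and in 5.33% of all windows. CACCTG was present in 9 (16.7%) and 6 (16.7%), against 19.5% of all. The kappaB motif was present in 6 (11.1%) and 3 (8.33%), against 12.8%, and TGACGTCA in 1 (1.85%) and 2 (5.56%), against 2.92%. ACGTG, the core of the hypoxia response element, was present in 14 (25.9%) and 5 (13.9%), against 25.2%. A match describes the letters of the window and does not show that a factor binds there. PERP, a desmosomal protein gene outside the rule for named genes and chosen after its values were seen, fell by 1.43 in EFO-21 and rose by 1.05 in OV-90 and 2.25 in Kuramochi.

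CDK6, a kinase that drives entry into S phase with the D-type cyclins (Gene ID 1021, chromosome 7, 92234235 to 92465887), fell in EFO-21 to near the bottom of the range. It went from 5.86, 5.79 and 5.95 to 1.79, 1.53 and 1.79. In OV-90 it went from 4.24 and 4.55 to 5.64, 5.50 and 6.0, and in OVSAHO from 6.23, 6.79 and 6.73 to 7.57, 8.04 and 7.83. The groups of these 3 lines did not overlap. In Kuramochi parental libraries the values were 7.48, 5.60 and 5.75 and in resistant ones 7.26, 7.45 and 6.26, so the groups overlapped and 0.71 was not called. The interaction was -5.25 (SE 0.43, adjusted p = 2.19e-08). The rises in OV-90 (1.32) and OVSAHO (1.23) were near the 2-fold line, and CDK6 was not opposed when library 2, 7, 20 or 21 was left out, although its interaction was still called.

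Of the 6 CHK1 pathway genes given by name, 0 were opposed in limma, while 0.637% of all genes were. CHEK1 itself differed by 0.04 in EFO-21, -0.10 in OV-90 and 0.07 in OVSAHO, and rose by 2.63 in Kuramochi, from 6.65, 6.79 and 6.81 to 9.37, 9.42 and 9.34. Its interaction of -0.83 (adjusted p = 2.81e-08) was under 2-fold. It became 0.05 (adjusted p = 0.597) without Kuramochi, and was called at -1.31 without OV-90 and -1.23 without OVSAHO. CCNA2, the cyclin of S phase and G2, fell by 1.05 in EFO-21, from 9.29, 9.14 and 9.23 to 8.09, 8.26 and 8.18, and differed by -0.83 in Kuramochi, -0.11 in OV-90 and 0.12 in OVSAHO. Its interaction was -0.77 (adjusted p = 4.79e-06), under 2-fold, and -1.05 (adjusted p = 5.41e-06), past 2-fold, without Kuramochi. CCNE1 differed by 0.57 in EFO-21, 0.38 in OV-90, -0.25 in Kuramochi and -0.38 in OVSAHO, with an interaction of 0.65. WEE1, the kinase that restrains CDK1, had an interaction of -0.26, ATR one of -0.06 and the phosphatase gene CDC25A one of 0.19, and the sign of each of these 3 turned when a line was left out. WEE1 became 0.10 and ATR 0.12 without OV-90, and CDC25A became -0.08 without Kuramochi. ATR was also 0.08 without library 2 alone.

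Of 32 ATR-CHK1 pathway genes, 1 had a higher interaction and 0 a lower one in limma (7 and 9 at an unadjusted p under 0.05). The 1 gene was PKMYT1, which encodes the CDK1-inhibiting kinase MYT1 and rose by 1.07 in EFO-21 (interaction 1.43). Of 40 genes of replication licensing and forks, 0 had a called interaction in either direction in limma, with 19 higher and 5 lower at an unadjusted p under 0.05 and a median of 0.22. Of 29 genes of G1/S cyclins, CDK inhibitors and pocket proteins, 2 were higher and 2 lower. CDKN1C, the CDK inhibitor p57, fell by 1.06 in EFO-21 and rose by 2.81 in Kuramochi.

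CDH1, the E-cadherin gene (Gene ID 999, chromosome 16, 68771195 to 68869440), rose in EFO-21 while it fell in Kuramochi and OVSAHO. It went from 4.52, 4.83 and 4.59 to 6.01, 6.09 and 6.0 in EFO-21. Parental Kuramochi had a like level of 4.88, 4.58 and 4.39 and went to 1.72, 1.64 and 1.47, while OVSAHO went from 8.09, 8.07 and 8.27 to 6.43, 6.45 and 6.53. The groups of these 3 lines were separate, and resistant EFO-21 stayed below both OVSAHO groups. OV-90 had 8.0 in library 2 and 9.12 in library 3, against 9.17, 9.11 and 9.35 in resistant libraries, so the groups overlapped and the difference of 0.65 was under 2-fold. Resistant Kuramochi (mean 1.61) was at the bottom of the range, so the Kuramochi fall is not a measured fold. The interaction was 2.73 (SE 0.22, adjusted p = 2.28e-08). The OV-90 difference had the sign of EFO-21 at an adjusted p of 0.016, and it rested on 8.0 in library 2. CDH1 was therefore not opposed with a threshold of 1.5-fold or of no fold, nor when library 3 was left out.

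CDH1 stood apart from its list. Of 30 epithelial junction genes, 12 had a higher and 6 a lower interaction (median 0.51), against 8.49% and 8.72% of all genes. Yet EFO-21 was called higher for 1 of them, CDH1, and lower for 9, against 6.66% and 7.05% of all genes. The other higher interactions went with falls in Kuramochi, OVSAHO or OV-90. EPCAM fell by 3.78 in Kuramochi and 3.01 in OVSAHO and had a difference of -0.21 in EFO-21. CLDN4, a claudin of tight junctions, fell by 4.61 and 2.86 in the same lines, with -0.41 in EFO-21. Other junction genes fell in EFO-21. CLDN1 went from 14.83, 14.66 and 14.66 to 12.69, 12.56 and 12.58 in EFO-21 and rose by 1.08 in OV-90, and the desmosomal gene PKP3 fell by 3.06 in EFO-21 and rose by 1.60 in Kuramochi.

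Of 20 epithelial transcription and splicing factors, 6 had a higher interaction and 3 a lower one (6 and 7 at an unadjusted p under 0.05 in limma). The median was 0.02, and EFO-21 was called higher for 0 and lower for 4, against 6.66% and 7.05% of all genes. EHF, an ETS factor of epithelia, fell by 4.07 in Kuramochi, 2.31 in OVSAHO and 1.33 in OV-90, with -0.36 in EFO-21. ESRP1, which directs epithelial splicing, fell by 2.55 in EFO-21 and by 2.24 in Kuramochi, with an interaction of -1.35.

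Of 16 measured keratins, 5 had a higher interaction and 0 a lower one in limma (6 and 2 at an unadjusted p under 0.05), with a median of 1.10. EFO-21 was called higher for 0 and lower for 2 of them (0 and 8 at an unadjusted p under 0.05), and the mean of the other lines higher for 0 and lower for 11 (0 and 14). Of all genes, 6.66% were called higher and 7.05% lower in EFO-21, and 4.53% and 4.81% in the mean of the other lines. The unadjusted counts over all 21658 genes were 5213 higher and 5177 lower in EFO-21 and 6917 and 6504 in the mean of the other lines. KRT5 lay between 0.07 and 1.26 in all EFO-21 libraries, at the bottom of the range. It went from 7.23, 7.18 and 7.17 to 2.07, 2.40 and 2.54 in OVSAHO and from 5.73, 5.75 and 7.13 to 0.20, 0.36 and 0.33 in Kuramochi. The summed level of the 16 keratins was 13.13 to 13.23 in parental EFO-21 and 12.50 to 12.55 in resistant EFO-21. It was 12.31 to 12.39 in parental OVSAHO and 11 to 11.11 in resistant OVSAHO. In OV-90 the sum was 14.28 in library 2, 13.83 in library 3 and 13.33 to 13.44 in resistant libraries. The part of library 2 in the keratin differences of OV-90 was not tested.

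VIM, FN1 and ZEB1 as mesenchymal markers were not opposed. FN1 was called higher in all 4 lines and its interaction of -0.97 was under 2-fold. It was called at -1.13 with library weights, -1.09 without OV-90 and -1.21 without OVSAHO. ZEB1 had an interaction of -0.63, and VIM one of -1.43 (adjusted p = 5e-04) that rested on Kuramochi and was -0.87 (adjusted p = 0.0518) without that line. Of 33 mesenchymal genes, 9 had a lower and 4 a higher interaction, with a median of -0.06. EFO-21 itself was called higher for 6 and lower for 2, against 6.66% and 7.05% of all genes, with a median change of 0.21. TGFBI, a secreted matrix protein induced by TGF-beta and 1 of those called lower, went from 8.0, 7.98 and 8.02 to 4.69, 4.65 and 4.68 in EFO-21 and from 1.60, 1.52 and 1.61 to 9.30, 9.03 and 9.11 in Kuramochi. The groups were far apart in both lines, while OV-90 (0.17) and OVSAHO (-0.01) were not called, and the interaction was -5.91. The parental Kuramochi values were at the bottom of the range, so the Kuramochi rise is not a measured fold.

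VCAN, the proteoglycan versican, went from 8.55, 8.47 and 8.59 to 5.97, 5.54 and 5.78 in EFO-21. In OV-90 it went from 6.77 and 7.06 to 8.89, 8.71 and 9.04, and in Kuramochi from 2.22, 2.18 and 2.63 to 5.76, 5.63 and 5.39. Parental EFO-21 had the highest level of the parental groups and resistant EFO-21 stood near resistant Kuramochi, and parental and resistant libraries did not overlap in these lines. OVSAHO differed by 0.30, which was not called. The interaction was -4.61 (SE 0.18, adjusted p = 1.27e-12).

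ADAM12, a metalloprotease, was opposed to all 3 other lines, with a fall of 2.67 in EFO-21 and rises of 2.27 in OV-90, 5.78 in Kuramochi and 1.28 in OVSAHO. Its Kuramochi values went from 5.12, 4.41 and 4.41 to 10.42, 10.50 and 10.36. In EFO-21 they went from 3.06, 3.68 and 1.74 to 0.23, 0.00 and 0.23, and in OVSAHO from 0.02, 0.02 and 1.34 to 0.95, 2.00 and 2.28. Kuramochi alone reached high levels, the OVSAHO groups overlapped, and the interaction was -5.78. With low values raised to the 10th percentile it was -3.23, the EFO-21 difference was -1, and ADAM12 was no longer opposed. ITGA1, the collagen-binding integrin alpha-1 chain, went from 6.27, 6.15 and 6.08 to 3.85, 3.73 and 3.78 in EFO-21 and from 3.43, 3.58 and 3.89 to 5.75, 5.93 and 5.98 in OVSAHO. These 2 lines exchanged places, the interaction was -3.45 (SE 0.18, adjusted p = 6.44e-11), and without library 2 ITGA1 was not opposed. HS3ST3A1, a heparan sulfate sulfotransferase gene, went from 7.49, 7.36 and 7.29 to 3.06, 3.05 and 2.86 in EFO-21 and rose by 2.15 in OV-90 and 1.49 in Kuramochi.

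MXRA5, a secreted matrix remodelling protein gene (Gene ID 25878, chromosome X, 3226606 to 3264693), went from 5.43, 5.74 and 5.21 to 8.43, 8.17 and 8.28 in EFO-21. In OVSAHO it went from 5.85, 5.99 and 6.16 to 4.31, 4.52 and 4.48, and in Kuramochi from 3.07, 2.68 and 2.15 to 1.45, 1.55 and 1.12. In OV-90 the parental values were 4.40 and 3.24 and the resistant values 3.47, 2.28 and 2.27. Groups were separate except in OV-90, where library 3 lay below 1 resistant library. MXRA5 was called in all 4 lines and its interaction was 4.15 (SE 0.36, adjusted p = 5.46e-08). Resistant Kuramochi (mean 1.37) was at the bottom of the range, so the Kuramochi fall is not a measured fold.

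COL6A3 met the rule on low values. It was 0.00 in all parental EFO-21 libraries and 2.96, 2.12 and 0.74 in resistant ones, and in OV-90 its fall rested on 4.16 in library 2 against 0.18 in library 3. Its interaction of 3.07 (adjusted p = 0.0052) became 0.73 (adjusted p = 0.286) with low values raised to the 10th percentile, and it was not opposed in 14 of the 23 fits that left out a library. Of 30 integrins and laminins, 3 had a higher and 5 a lower interaction, and of 34 matrix proteases and their inhibitors, 5 and 7. MMP10, a stromelysin, rose by 4.37 in EFO-21 (interaction 3.31), and TIMP3, a metalloprotease inhibitor, rose by 1.61 in EFO-21 and fell by 2.21 in OV-90.

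**Figure D3:**
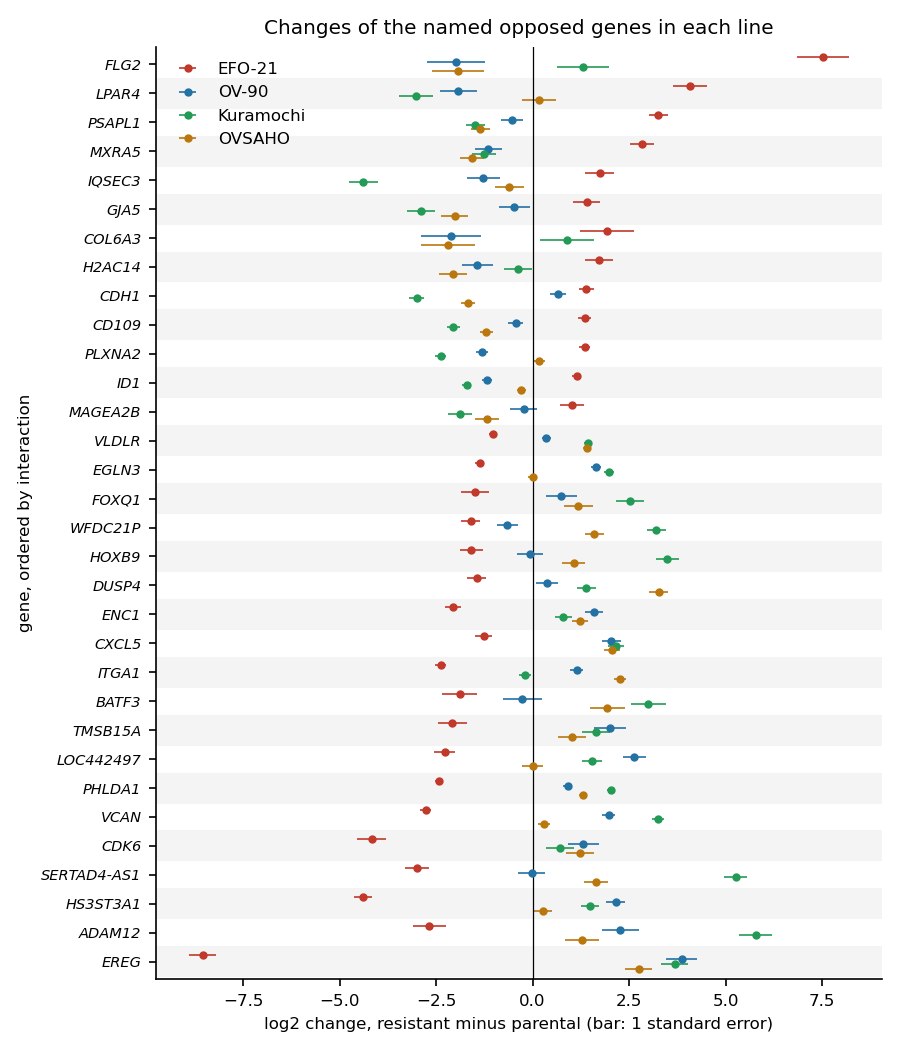
Log2 change (resistant minus parental) of the 32 named opposed genes in each of the 4 lines on the horizontal axis, with a bar of 1 standard error, and genes on the vertical axis ordered by their interaction from FLG2 at 8.41 to EREG at -11.99. The EFO-21 points lie right of 0 for the upper 13 genes and left of it for the lower 19, opposite to at least 2 other lines for each gene.

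ID1, a target of BMP signalling that blocks differentiation factors, rose in EFO-21 from 11.63, 12.04 and 11.46 to 12.79, 12.88 and 12.86. It fell in OV-90 from 9.96 and 9.61 to 8.49, 8.77 and 8.56, and in Kuramochi from 12.79, 13.03 and 13.12 to 11.29, 11.22 and 11.30. In OVSAHO the values were 12.57, 12.60 and 12.72 in parental and 12.22, 12.36 and 12.44 in resistant libraries. Parental and resistant libraries were apart in all 4 lines, and the OVSAHO difference of -0.29 was not called. The interaction was 2.20 (SE 0.14, adjusted p = 1.04e-09). ID3, a relative with the same action, rose by 2.59 in EFO-21 and fell by 1.52 in Kuramochi (interaction 3.26), and SMAD6, an inhibitor of BMP signalling that it also induces, rose by 1.24 with differences of -0.75 in OV-90 and -0.99 in Kuramochi that were not called.

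PMEPA1, a TGF-beta target and feedback inhibitor, went the other way. It went from 6.58, 6.77 and 6.84 to 2.73, 2.59 and 2.87 in EFO-21 and from 2.63, 3.30 and 2.31 to 6.40, 6.48 and 6.56 in Kuramochi. These lines exchanged levels, and the interaction was -5.41 (SE 0.29, adjusted p = 1.09e-10). Of 42 genes of the TGF-beta and activin pathway, 6 had a higher and 8 a lower interaction, with a median of -0.16.

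EGLN3, an oxygen-sensing prolyl hydroxylase that is itself induced by hypoxia, fell in EFO-21 from 7.06, 7.37 and 7.11 to 5.61, 6.08 and 5.73. It rose in OV-90 from 7.88 and 7.72 to 9.43, 9.39 and 9.49, and in Kuramochi from 7.67, 7.52 and 7.53 to 9.55 in each of the 3 libraries. The parental levels of these 3 lines were alike and the resistant levels were not, while OVSAHO lay between 3.32 and 3.66 in all 6 libraries. The interaction was -2.58 (SE 0.14, adjusted p = 7.26e-11). EPAS1, which encodes HIF-2 alpha and was chosen after its values were seen, fell by 2.54 in EFO-21 and rose by 1.06 in OV-90 and 1.25 in Kuramochi.

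Of 50 hypoxia and glycolysis genes, 7 had a lower interaction and 0 a higher one in limma, with 37 and 6 at an unadjusted p under 0.05 and a median of -0.62. BNIP3, a mitophagy receptor, fell by 1.37 in EFO-21 and rose by 1.27 in OV-90. CA12, a carbonic anhydrase, went from 8.51, 8.57 and 8.47 to 5.43, 5.42 and 5.22 in EFO-21 and was not called in the other lines. VLDLR, a lipoprotein receptor of the list of ATF4 and unfolded protein response genes, fell by 1.03 in EFO-21 and rose by 1.43 in Kuramochi and 1.42 in OVSAHO. It went from 7.52, 7.47 and 7.51 to 6.53, 6.49 and 6.40 in EFO-21, close to the 2-fold line, and was not opposed without library 24.

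Interferon-stimulated genes were the largest list with mainly higher interactions. Of 52 measured, 17 were called higher and 1 lower, with a median of 0.67, and EFO-21 was called higher for 12 and lower for 0 (33 and 5 at an unadjusted p under 0.05 in limma, against 5213 and 5177 of all 21658 genes). Kuramochi was also called higher for 12 of the 52, and lower for 5, while OV-90 had 2 higher and 6 lower and OVSAHO 1 and 6. Of all genes, EFO-21 had 6.66% called higher and 7.05% lower, Kuramochi 12.3% and 11%, OV-90 11.4% and 8.23%, and OVSAHO 3.93% and 3.92%. IFI6 went from 8.25, 8.30 and 8.40 to 10.04, 10.13 and 10.35 in EFO-21, and ISG15, a ubiquitin-like modifier, from 11.87, 11.83 and 11.90 to 12.93, 13 and 12.98. In EFO-21 the groups of both genes were separate, while IFI6 was not called in OV-90 (-0.55), Kuramochi (-0.60) or OVSAHO (-0.12). MX1, an antiviral GTPase, rose by 1.43 in EFO-21 with no call in the other lines. BST2 (tetherin) had an interaction of 2.29, with a fall of 5.01 in Kuramochi. STAT2, a subunit of the factor that induces these genes, was the 1 called lower, at -1.14.

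**Figure D4:**
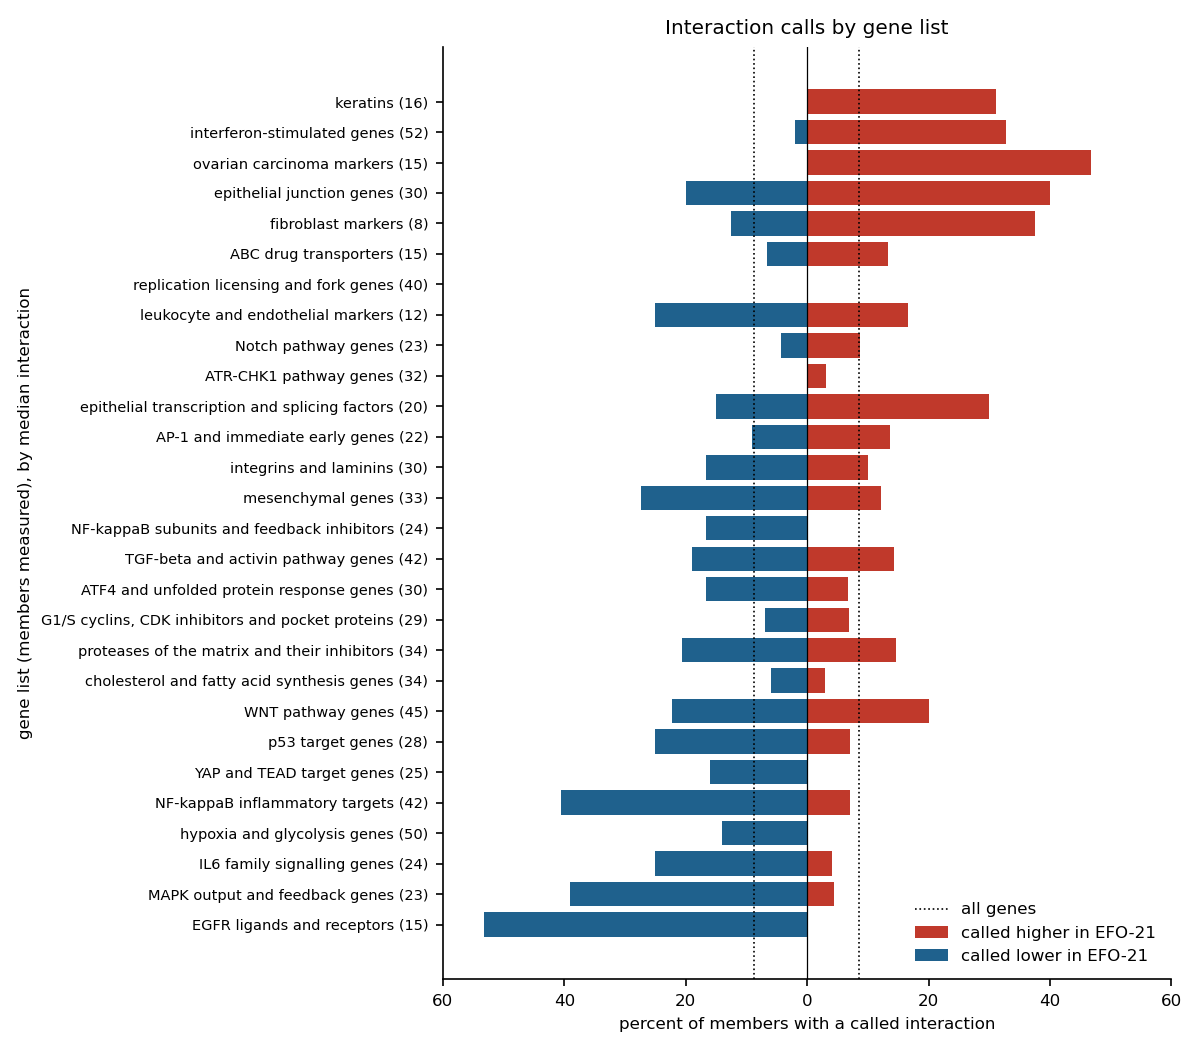
For each gene list, bars give the percent of measured members with a called interaction on the horizontal axis, to the right for higher in EFO-21 and to the left for lower, with dotted lines at 8.49% and 8.72% for all genes. Lists are ordered by their median interaction, from keratins at 1.10 to EGF receptor ligands and receptors at -1.19.

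The other named genes that rose in EFO-21 have varied roles. LPAR4, a receptor of lysophosphatidic acid, went from 2.02, 2.84 and 1.62 to 6.08, 6.30 and 6.33 in EFO-21 and from 6.35, 6.37 and 5.41 to 2.14, 3.44 and 3.53 in Kuramochi. These 2 lines exchanged levels, and the interaction was 5.66 (SE 0.51, adjusted p = 7.34e-08). LPAR4 was not opposed with low values raised to the 10th percentile (interaction 5.22) or with library weights (5.90). PLXNA2, a semaphorin receptor, went from 4.95, 4.72 and 4.87 to 6.20, 6.14 and 6.25 in EFO-21 and from 6.71, 6.39 and 6.39 to 4.13, 4.22 and 4.0 in Kuramochi. It showed the same exchange and fell by 1.31 in OV-90. CD109, a membrane protein that binds TGF-beta, rose by 1.35 in EFO-21 and fell by 2.05 in Kuramochi and 1.20 in OVSAHO, and was opposed in all 23 fits that left out a library. An antisense gene at its locus, CD109-AS1, was opposed in the fit of all libraries and in 5 of those 23. The libraries were made with a stranded kit, but the use of strand in counting is not stated.

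GJA5, the gap junction protein connexin 40, rose by 1.40 in EFO-21 and fell by 2.89 in Kuramochi, from 10.45, 10.32 and 10.07 to 7.54, 7.25 and 7.40, and by 2.02 in OVSAHO. PSAPL1, a saposin-like gene, went from 3.80, 4.10 and 3.76 to 7.03, 7.19 and 7.22 in EFO-21 and fell by 1.48 in Kuramochi and 1.35 in OVSAHO. IQSEC3, an exchange factor for ARF GTPases, went from 7.32, 7.53 and 7.48 to 9.19, 9.24 and 9.13 in EFO-21 and from 6.65, 6.55 and 6.69 to 2.33, 1.32 and 3.11 in Kuramochi. The groups of each gene were apart in EFO-21 and in the lines called the other way. FLG2, a filaggrin relative of cornified epithelium, had 0.00 in the parental EFO-21 libraries, so its difference of 7.53 is not a measured fold. FLG2 differed by 1.31 in Kuramochi, the direction of EFO-21, and by -0.87 in the mean of the other lines (limma adjusted p = 0.0709). Neither difference of FLG2 was called. Its OV-90 call rested on 3.92 in library 2, as library 3 had 0.18 and the resistant libraries 0.06 to 0.07, and without it FLG2 was not opposed. MAGEA2B (interaction 2.12) and the histone gene H2AC14 (3.03) belong to families of related genes, and which copy their reads came from was not tested. H2AC14 and IQSEC3 were not opposed without library 2, FLG2 in 12 of the 23 fits that left out a library, and MAGEA2B in 4. None of these 4 genes was opposed with library weights, H2AC14, FLG2 and MAGEA2B were not with each line fitted alone, and MAGEA2B was not with low values raised.

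The other named genes that fell in EFO-21 included regulators of development. HOXB9, a homeobox gene, went from 10.60, 10.73 and 10.63 to 8.97, 9.08 and 9.13 in EFO-21 and from 2.01, 0.53 and 0.70 to 4.02, 4.74 and 4.96 in Kuramochi. FOXQ1, a forkhead factor, went from 6.89, 6.96 and 6.20 to 5.11, 5.57 and 4.91 in EFO-21 and from 3.42, 2.39 and 1.97 to 4.89, 4.60 and 5.89 in Kuramochi. For both, the groups were separate in these lines and in OVSAHO, where HOXB9 rose by 1.07 and FOXQ1 by 1.19. The parental Kuramochi group of HOXB9 (mean 1.08) was at the bottom of the range, so that rise is not a measured fold. HOXB9 was not opposed without library 8 or 9, and FOXQ1 not without library 7, 8 or 20. TMSB15A, a thymosin that binds actin monomers, was opposed to all 3 other lines. It fell by 2.08 in EFO-21 and rose by 2.01 in OV-90, 1.64 in Kuramochi and 1.02 in OVSAHO (adjusted p = 0.0493). Its Kuramochi groups overlapped, and the parental one (mean 0.81) was at the bottom of the range, so that rise is not a measured fold. ENC1, an actin-binding kelch protein, went from 7.36, 7.07 and 7.05 to 5.0, 5.04 and 5.25 in EFO-21 and from 5.41, 5.44 and 5.34 to 6.65, 6.68 and 6.60 in OVSAHO. Again the 2 lines exchanged levels. SERTAD4-AS1 (-5.30) shares its locus with the opposed gene SERTAD4, and WFDC21P (-2.99) and LOC442497 (-3.67) are a pseudogene and a locus without a known role, so the source of their reads is uncertain. WFDC21P was not opposed without library 3.

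Of 45 WNT pathway genes, 9 had a higher and 10 a lower interaction (14 and 15 at an unadjusted p under 0.05 in limma), among them LGR5, a stem cell receptor that rose by 1.77 in EFO-21 and fell by 4.95 in Kuramochi, and WNT5A, a ligand that fell by 4.98 in EFO-21. Of 28 p53 target genes 2 were higher and 7 lower (3 and 14 unadjusted), with a median of -0.25 and the death receptor gene FAS at -2.73. Of 25 YAP and TEAD targets 0 were higher and 4 lower in limma (5 and 9 at an unadjusted p under 0.05), and of 30 genes of ATF4 and the unfolded protein response 2 and 5 (5 and 13 unadjusted). Cholesterol and fatty acid synthesis had 1 higher and 2 lower of 34 (9 and 13 unadjusted), and Notch 2 and 1 of 23 (7 and 2 unadjusted). ABC drug transporters had 2 higher and 1 lower of 15 (10 and 1 unadjusted), with a median of 0.43. ABCG2, a drug efflux pump, was the 1 called lower, with a fall of 1.63 in EFO-21 and a rise of 1.70 in Kuramochi.

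Among 15 ovarian carcinoma markers, 7 had a higher interaction and 0 a lower one in limma (8 and 0 at an unadjusted p under 0.05). MSLN, the mesothelin gene, rose by 2.10 in EFO-21 and was called in no other line. MUC16, which encodes the antigen CA125, was called lower in Kuramochi (-2.33) and OVSAHO (-4.59), with 0.39 in EFO-21. The summed level of the list lay between 13.66 and 13.72 in all 6 EFO-21 libraries. Leukocyte and endothelial markers had 2 higher and 3 lower interactions of 12. EFO-21 itself was called higher for 1 and lower for 3 of these markers, against 6.66% and 7.05% of all genes. Their sum in EFO-21 was 10.48 to 10.56 in parental libraries and 10.94 to 11.03 in resistant ones. The markers at the bottom of the range went from 2 to 4 or 5. Fibroblast markers had 3 higher and 1 lower of 8, with EFO-21 sums of 6.58 to 6.87 in parental and 7.0 to 7.07 in resistant libraries. Their part in the opposed matrix genes was not tested.

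Outside the named genes, 13 more were called against EFO-21 in all 3 other lines and are given here as chosen after their values were seen. In the falling direction these were RGS7, NKX2-2, KITLG, NKX6-3 and VSIG1. KITLG, the ligand of the receptor KIT, fell by 2.80 in EFO-21 and rose by 1.27 in OV-90, 2.56 in Kuramochi and 1.21 in OVSAHO. NKX2-2, a homeobox gene, fell by 2.67 and rose by 1.74, 1.48 and 3.54. Its resistant EFO-21 (mean 0.97), parental Kuramochi (0.02) and parental OVSAHO (0.61) groups were at the bottom of the range. The changes in those lines are therefore not measured folds. In the rising direction EPHA1, an ephrin receptor, rose by 1.67 in EFO-21 and fell by 1.78, 4.53 and 4.57. Its parental EFO-21 (mean 1.41), resistant Kuramochi (0.5) and resistant OVSAHO (1.4) groups were at the bottom of the range. The changes in those lines are not measured folds. SYT8 rose by 1.96 and fell by 1.74, 2.28 and 3.47, with resistant Kuramochi (0) and OVSAHO (1.01) at the bottom of the range. The other 6 rising genes were PPIAL4D, MTRNR2L10, H1-5, GSTT2, GSTT2B and GPX1P2. They belong to families of related genes or pseudogenes, and the origin of their reads was not tested.

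The difference between EFO-21 and each single line was also tested. These tests share the EFO-21 libraries. The change in EFO-21 differed from that in OV-90 for 24.9% of all genes, from that in Kuramochi for 26.6% and from that in OVSAHO for 15.7%. A difference from each of the 3 lines was called for 504 of the 1838 genes with a higher interaction (27.4%) and 591 of the 1888 with a lower one (31.3%).

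EFO-21 was not the line with the most opposed genes. When each line was set against the other 3 in the same way, Kuramochi had 147 opposed genes, EFO-21 138, OV-90 107 and OVSAHO 57. The lines also differed in how many of all genes were called between their own groups, 23.4% in Kuramochi, 19.6% in OV-90, 13.7% in EFO-21 and 7.85% in OVSAHO. As a share of the genes called in the line itself, the opposed genes were 4.65% for EFO-21, 3.35% for OVSAHO, 2.91% for Kuramochi and 2.52% for OV-90. All 4 counts use the same 23 libraries and are a description.

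**Figure D5:**
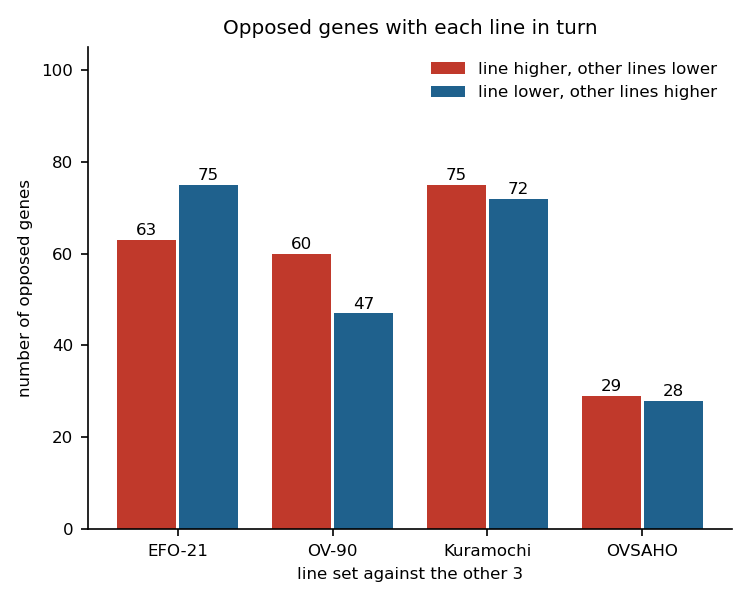
Number of opposed genes on the vertical axis when each of the 4 lines on the horizontal axis is set against the other 3, with red bars for genes higher in that line and lower in the others and blue bars for the reverse. EFO-21 has 63 and 75, Kuramochi 75 and 72, OV-90 60 and 47, and OVSAHO 29 and 28.

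Many opposed genes started from a parental EFO-21 level that was itself apart. EFO-21 had the lowest parental group mean of the 4 lines in 36 of the 63 genes that rose in it (57.1%, against 27.6% of all genes) and the highest in 37 of the 75 that fell (49.3%, against 23.9%). EREG, CXCL5 and PHLDA1 are examples of the latter and FLG2 of the former. For the genes that rose, the median of EFO-21 minus the mean of the other lines went from -2.10 in parental to 1.42 in resistant groups, and for those that fell from 1.62 to -1.98. The parental level enters both the choice of the genes and these values, which are a description.

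Low values lie behind many of the genes. In 20 of the 63 genes that rose in EFO-21 the parental EFO-21 group was at or under the 10th percentile of its libraries, and in 35 the resistant group of another called line was. Neither held for 21. For the 75 that fell, the resistant EFO-21 group was there in 22, the parental group of another called line in 32, and neither in 32. A value from the mean of log2 exon values, in place of the robust model, was behind 34 of the 63 and 14 of the 75. The conditions on symbol, separate EFO-21 groups and level in the rule for named genes were met by 12 of the 63 and 22 of the 75.

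Of all genes, 0.637% were opposed. Chromosome 4, which carries EREG, AREG, BTC and CXCL5, had 4 opposed genes higher and 6 lower (1.39% of its 719 genes), chromosome 6 had 6 and 8 (1.33% of 1053), and chromosome 1 had 7 and 7 (0.709% of 1975). The X chromosome had 4 and 5 (1.15% of 782), and the lowest share was on chromosome 14, with 0 and 1 (0.162%). Lower interactions were most frequent on chromosomes 4 (18.6%) and 12 (17.3%), and higher ones on chromosomes 22 (13.6%) and 11 (12.1%).

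Of the 138 opposed genes, 61 were opposed with every one of the 23 libraries left out in turn, 23 of those higher in EFO-21 and 38 of those lower. Leaving out library 2 kept 106 of the 138, the fewest of any library. EREG, PHLDA1, CXCL5, DUSP4, VCAN, MXRA5, ID1, EGLN3, HS3ST3A1, ADAM12 and ENC1 were among the 20 named genes that were opposed in all 23 of these fits. With genes of low mean left out of the fit, 66 of the 138 remained opposed.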

How the data were processed

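The deposited values are log2 expression values. Reads were placed on GRCh37/hg19 by the authors (aligner version not given), who aggregated exon counts from repeated assays, dropped sparsely read exons, took a robust linear model (16448 genes) or a mean of log2 exon values (5210 genes), and quantile normalized the libraries. Depth is unknown, and 0 columns belonged to other samples. Symbols (20745 of 21658 genes) came from RefSeq and positions from GENCODE lifted to GRCh37.

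All 23 libraries were fitted with limma 3.58.1 in R 4.3.3 (lmFit, 8 group means, eBayes with trend, no filter), with two-sided p-values adjusted by Benjamini-Hochberg over all genes. Exact permutation of 3 against 3 libraries cannot go below p = 0.1 and is not given. The code was tested on simulated data.

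Named genes were, in each direction, the 12 opposed genes with the largest value of the smaller of the EFO-21 change and the mean change of the other lines, among genes with a symbol, separate EFO-21 groups, and the higher EFO-21 group mean and the highest group mean of the other lines above the median of all gene means (5.81), plus opposed list members, 6 CHK1 pathway genes and 4 markers. Lists were chosen with earlier results of these data known.

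Alternatives were each line fitted alone, no trend, library weights, a filter at the 25th percentile of gene means, values floored at the 10th percentile, recentred libraries, other fold thresholds, leaving out each line or library, and calls in all 3 other lines.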

Additional observations from a re-analysis of the deposited data

Results flagged for a closer look

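The change with resistance differed between EFO-21 and the mean of the other 3 lines in each result given here, and that difference was itself tested as an interaction in limma. It was called higher in EFO-21 for 1838 genes and lower for 1888.

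Among the named genes, the interaction was higher in EFO-21 for FLG2 (8.41), LPAR4 (5.66), PSAPL1 (4.38), MXRA5 (4.15), IQSEC3 (3.83), GJA5 (3.19), COL6A3 (3.07), H2AC14 (3.03), CDH1 (2.73), CD109 (2.58), PLXNA2 (2.52), ID1 (2.20) and MAGEA2B (2.12). It was lower for EREG (-11.99), ADAM12 (-5.78), HS3ST3A1 (-5.69), SERTAD4-AS1 (-5.30), CDK6 (-5.25), VCAN (-4.61), PHLDA1 (-3.84), LOC442497 (-3.67), TMSB15A (-3.64), BATF3 (-3.45), ITGA1 (-3.45), CXCL5 (-3.36), ENC1 (-3.27), DUSP4 (-3.13), HOXB9 (-3.09), WFDC21P (-2.99), FOXQ1 (-2.98), EGLN3 (-2.58), VLDLR (-2.09) and VIM (-1.43). Of these genes, VIM alone was not opposed, as EFO-21 and OV-90 were not called and Kuramochi was the 1 line called higher.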

How the results depend on the processing

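The counts of higher and lower interactions (1838 and 1888) became 970 and 1154 with genes above the 25th percentile of means, where fewer genes were tested, 2980 and 3241 at 1.5-fold and 4404 and 4727 with no fold threshold. Leaving out 1 library gave 1718 to 2010 and 1778 to 2080. The opposed counts (63 higher and 75 lower) became 28 and 38 with that filter, 156 and 179 at 1.5-fold, 371 and 391 with no fold threshold and 9 and 9 when all 3 other lines had to be called. They were 33 and 46 without OV-90, 23 and 23 without Kuramochi and 23 and 34 without OVSAHO, where fewer lines could be called. The higher count was also 34 with each line fitted alone and 41 with low values raised to the 10th percentile, and the cause was not tested. Leaving out 1 library gave 47 to 77 higher and 67 to 82 lower. The interaction changed sign for CHEK1 without Kuramochi (0.05), for CDC25A without Kuramochi (-0.08), for WEE1 without OV-90 (0.10) and for ATR without OV-90 (0.12) or parental OV-90 library 2 (0.08), with a range of -0.20 to 0.08 for ATR over the single libraries left out. The cause was not tested.

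Of the 138 opposed genes, 94 were opposed with each line fitted alone, 133 without the trend, 95 with library weights, 83 with low values raised, 138 after recentring, and 69, 37 and 51 without OV-90, Kuramochi and OVSAHO. No paired analysis was possible because the columns carry library numbers and no replicate number. Leaving out a parental OV-90 library leaves 1, which is assumed to vary like the other groups. Each line has 1 resistant form, so a difference between lines cannot be told apart from a difference between single derivations. Quantile normalization hides shifts common to most genes, and unknown depth leaves the precision of low values unknown.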
